A study of Mus musculus with 2 samples.

Results

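Newly formed oligodendrocytes were described here as 272 of 39855 hippocampal nuclei, 147 of 20261 in the library of AAV-STOP mice and 125 of 19594 in that of AAV-TAU mice. They were chosen by the unique molecular identifiers (UMIs, each counting 1 captured RNA molecule) of 9 genes. A member had 4 or more UMIs summed over Enpp6, Gpr17, Bmp4, Neu4 and 9630013A20Rik, 2 or more of them from Enpp6, Gpr17 and Bmp4, and at most 1 UMI of Pdgfra, of Rbfox3, and of Top2a and Mki67 together. The levels of these 9 genes in the members are therefore a description and not a finding.

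All mice were C57BL/6J, received adeno-associated virus (AAV) into the ventricles on both sides at postnatal day 0, and were 6 weeks of age when hippocampal nuclei were taken. The AAV-STOP vector carried a human MAPT transcript with a premature stop codon and so made no tau protein, while the AAV-TAU vector encoded wild-type human tau in its 2N4R form, full length. Both groups thus carried a human MAPT transcript. The hippocampi of 3 mice were pooled into 1 library per group, and a viral vector does not reach every cell. The gene tables held no human MAPT row, so transduced nuclei were not marked and the vector labels were not checked from the counts. With 1 library per group no test was possible, and the intervals below are exact 95% intervals that cover counting error only, not the spread between mice.

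Oligodendrocytes, the myelin-forming glia, arise throughout life from precursor cells that carry Pdgfra, the receptor for platelet-derived growth factor. A precursor that leaves the cell cycle passes through a short premyelinating state before it wraps axons. Gpr17, a receptor that holds back maturation, and Bmp4, a secreted growth factor, are known from the start of this state. Enpp6, a choline phosphodiesterase, is known from its later phase. Neu4 is a sialidase, and 9630013A20Rik a long noncoding transcript also known as a marker of this state. Wnt effectors such as Tcf7l2 and kinases such as Fyn act in the same window.

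The 2 libraries held 20265 and 19596 barcodes with medians of 5751 and 5119.5 UMIs. The median member had 4229 UMIs (AAV-STOP, range 1995 to 22598) or 3838 UMIs (AAV-TAU, range 1780 to 15225), and 2010 or 1994 genes. Mitochondrial UMIs made up medians of 0.163% and 0.213% of a member. A doublet method marked 12 members (8.16%) and 10 members (8.0%), below the 12.2% and 10.9% of all barcodes. The libraries shared 116 barcode sequences, and 0 of them belonged to a member.

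Among the rule's genes, 9630013A20Rik was detected in 134 of 147 and 114 of 125 members, Enpp6 in 127 and 103, Gpr17 in 91 and 82, Neu4 in 79 and 59, and Bmp4 in 64 and 62. Their levels, as counts per 1e+06 UMIs summed over the members (CPM), were 830 and 811 for Enpp6, 296 and 325 for Gpr17, 207 and 253 for Bmp4, 211 and 211 for Neu4, and 3964 and 4653 for 9630013A20Rik in AAV-STOP and AAV-TAU. No gene of the 5 differed by 1.5-fold between the libraries. 9630013A20Rik lies at chr14:84458639-84476424 (GRCm38) on the minus strand, antisense to and inside Pcdh17, and whether the counting used strand is not given in the sources used here.

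Values at the edge of the rule were as follows. Members with exactly 4 marker UMIs (10 and 8) held Tcf7l2 at 64.4 and 169 CPM and Ptprz1, a precursor receptor phosphatase, at 1257 and 1393 CPM. Nuclei with 3 marker UMIs that met the other limits (42 and 35) held Tcf7l2 at 126 and 98.1 CPM and Ptprz1 at 747 and 954 CPM. Members with 2 UMIs of Enpp6, Gpr17 and Bmp4 together (26 and 17) held Tcf7l2 at 1823 and 777 CPM, against 1007 and 461 CPM in nuclei with 1 (29 and 23). The lowest marker sums thus had little Tcf7l2 on either side of the limit, while low counts of the 3 defining genes alone did not. The limit on Rbfox3, a neuronal nuclear protein, removed 36 and 23 nuclei that were positive on the markers, and that on Pdgfra 17 and 14.

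Members were set against 2 neighbouring classes taken from the same libraries by set limits. Precursor-like nuclei had 3 or more Pdgfra UMIs (186 and 166), and mature-like nuclei had 5 or more UMIs over Mog, Mag, Mobp, Mal, Opalin and Aspa (1969 and 2334). Both had at most 1 UMI over Enpp6, Gpr17 and Bmp4. Members lay between the 2 classes in the shares of the precursor and myelin lists, and above both in a further set of genes. Genes of the precursor list made up a median of 1.47% and 1.56% of a member's UMIs, against 2.65% and 2.36% in precursor-like and 0.0946% and 0.0883% in mature-like nuclei. Genes of the myelin list made up 1.35% and 1.49%, against 0.157% and 0.175% in precursor-like and 1.95% and 1.90% in mature-like nuclei. The myelin list includes Mog, Mag, Mobp, Mal, Opalin and Aspa, which chose the mature-like class, so the choice itself raised the list's share there. That members lay below mature-like nuclei in this share is therefore no finding. Genes known from newly formed oligodendrocytes that the rule did not use made up 2.08% and 2.10% of a member, and no more than 0.430% in the medians of the other classes.

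**Figure D1:**
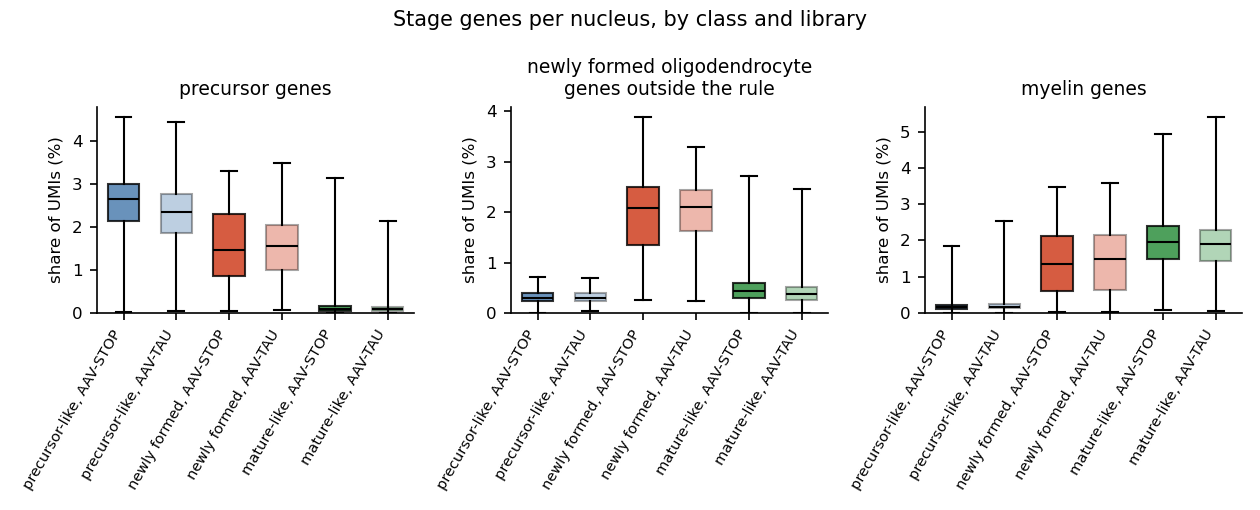
Share of each nucleus's UMIs (percent) that fell on the precursor list, the newly formed list outside the rule and the myelin list, in precursor-like, newly formed and mature-like nuclei of each library. Boxes give the quartiles and median over nuclei and whiskers the lowest and highest nucleus. Newly formed nuclei are intermediate by median in the first and last panels and highest in the middle one. The last panel includes genes that chose the mature-like class.

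Of 4628 genes with 50 CPM or more in any class in both libraries, 172 (3.72%) were 2-fold or more higher in members than in both other classes in both libraries, and 30 (0.648%) were 2-fold or more lower than both. Without marked doublets 62 were lower. Folds of this kind were taken on CPM + 5. Since the members were chosen by expression, these counts describe the class and test nothing.

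The named gene that stood highest over both classes (unnamed gene models aside) was Frmd4a, a scaffold protein with a FERM domain, at 11055 CPM in AAV-STOP members and 10526 CPM in AAV-TAU members. It was at 182 and 272 CPM in precursor-like and 482 and 402 CPM in mature-like nuclei. Tcf7l2, a transcription factor of the Wnt pathway needed for oligodendrocyte maturation, was at 1686 and 1503 CPM, against 105 and 145 CPM in precursor-like and 86.1 and 65.5 CPM in mature-like nuclei. It was detected in 82.3% and 83.2% of members, and in 15.5% and 13.6% of mature-like nuclei, whose median depths were 2742 and 2516.5 UMIs. Both genes were therefore many times higher in members than on either side of them.

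Signalling and membrane genes filled much of the top of the list. Fyn, a Src-family kinase that acts downstream of axonal contact in oligodendrocytes, was at 3143 and 3534 CPM, against at most 349.8 CPM in the other classes. Pik3r3, a regulatory subunit of phosphoinositide 3-kinase, was at 1868 and 1812 CPM, against at most 108 CPM. Tmem108, a transmembrane protein, was at 2996 and 2864 CPM, against at most 259.7 CPM. Epb41l2, a membrane cytoskeleton linker of the protein 4.1 family, was at 1373 and 1292 CPM, against at most 84.1 CPM. These 4 genes differed by less than 1.5-fold between the 2 libraries, though the counting intervals of Fyn (3011 to 3279 and 3375 to 3698 CPM) did not overlap.

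Lower in level but as sharply restricted were Kif19a, a kinesin motor, at 259 and 232 CPM against at most 7.0 CPM, and Col9a1, a collagen chain, at 103 and 131 CPM against at most 6.64 CPM. Cemip2, a cell-surface hyaluronidase, was at 389 and 346 CPM against at most 37.5 CPM. Rassf10, Pde9a (a phosphodiesterase of cyclic GMP) and Dock6 (a guanine nucleotide exchange factor) completed the 12 genes that the rule for naming took, at 53.3 to 207 CPM in members and at most 13.9 CPM elsewhere.

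Genes lower in members than on both sides were fewer. Samd4, an RNA-binding translational regulator, was at 19.2 and 24.7 CPM in members, 195 and 173 CPM in precursor-like and 126 and 139.7 CPM in mature-like nuclei. Hepacam, a glial adhesion molecule, was at 35.5 and 32.4 CPM, against 147 and 148 CPM in precursor-like and 196 and 187 CPM in mature-like nuclei. Slc8a3 (a sodium and calcium exchanger), Pstpip2, St6gal1 (a sialyltransferase) and Abca8b (a lipid transporter) were at 13.3 to 50.2 CPM in members and at 71.4 to 335 CPM in the other classes.

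**Figure D2:**
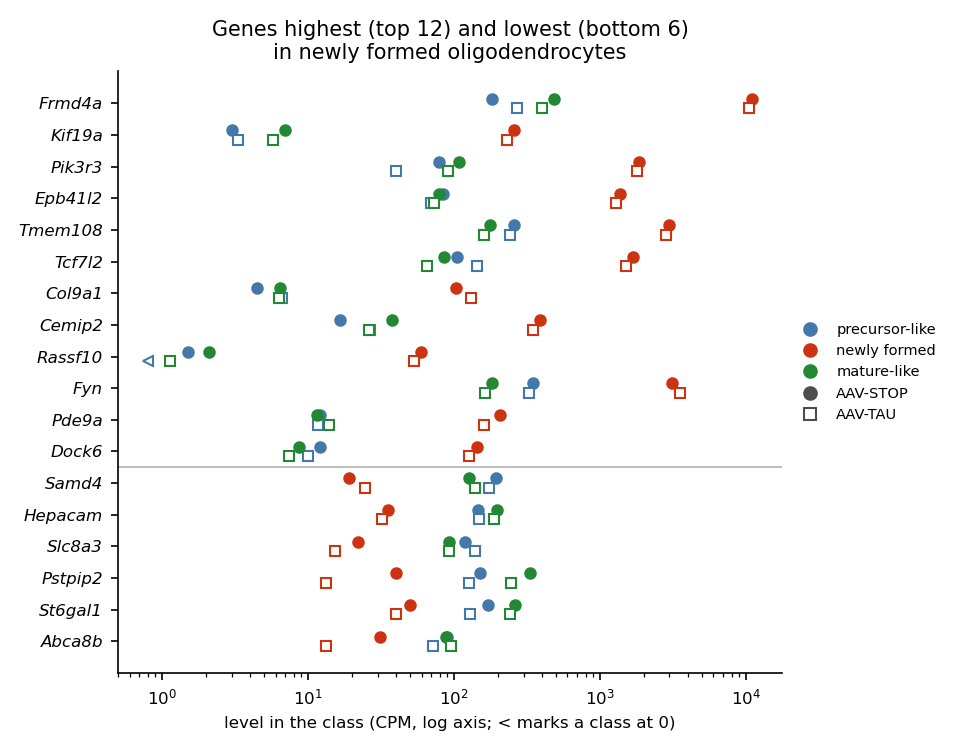
Level (CPM, log axis) of the 12 genes highest in newly formed oligodendrocytes over both other classes and, under the line, the 6 lowest, with filled circles for AAV-STOP and open squares for AAV-TAU. The red points of newly formed oligodendrocytes sit apart from the blue precursor-like and green mature-like points in both libraries, from Frmd4a at over 10526 CPM down to Rassf10 at 53.3 CPM.

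Of 22 tested genes known from newly formed oligodendrocytes outside the rule, 17 were 2-fold or more higher than both classes and 1, Samd4, was lower than both. Of all genes, 3.72% were higher and 0.648% lower than both. Besides Tcf7l2, Fyn, Kif19a and Cemip2, the 17 included Bcas1, a marker of premyelinating cells, at 3595 and 3730 CPM against at most 473 CPM. Itpr2, a calcium release channel of the endoplasmic reticulum, was at 1563 and 1840 CPM, with 522 and 442 CPM in precursor-like and 63.6 and 50.3 CPM in mature-like nuclei. Tns3, a focal adhesion protein, was at 2224 and 2061 CPM, and Cnksr3, a scaffold protein, at 821 and 757 CPM. Zfp536, Man1a and Plekha1 lay between the 2 classes, with more in mature-like nuclei.

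Of 12 tested transcription factors of the lineage, 1, Tcf7l2, was 2-fold higher than both classes, against 3.72% of all genes, and so small a count does not set the list apart. Sox10, which marks the whole lineage, was at 520 and 571 CPM in members, 369 and 317 CPM in precursor-like and 193 and 199 CPM in mature-like nuclei. Myrf, the activator of myelin genes, was at 117 and 78.0 CPM, against 19.5 and 9.97 CPM in precursor-like and 79.1 and 83.1 CPM in mature-like nuclei. St18 was at 2123 and 2091 CPM in members and 2315 and 2007 CPM in mature-like nuclei, with 141 and 121 CPM in precursor-like ones. Sox6, which keeps precursors immature, was at 1810 and 1768 CPM in members and 1632 and 1538 CPM in precursor-like nuclei, and at 53.0 and 47.3 CPM in mature-like ones. Summed over members, Sox6 was thus near the precursor level and St18 near the mature level. In the split of members below, Sox6 was higher with Gpr17 and Bmp4 and St18 with Enpp6, in both libraries. Whether single nuclei held both was not tested.

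Myelin genes were already present, in differing degree. Of 18 tested, 12 lay between the 2 classes in both libraries (880 of all 4628 genes, 19%, did), but Mog, Mag and Mobp among the 12 were used to choose mature-like nuclei. Mbp, myelin basic protein, was at 6488 and 5844 CPM in members, above the 5535 and 4899 CPM of mature-like nuclei. Ermn, a cytoskeletal protein of late oligodendrocytes, was at 26.6 and 32.4 CPM, against 235 and 255 CPM. Nfasc, an adhesion molecule of axon and glia contacts, was at 4100.1 and 4249 CPM and the only myelin gene 2-fold higher than both classes. Mbp and Nfasc were thus above their mature-like levels in members, and Ermn was far below its own.

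Of 18 tested precursor genes, 13 lay between the 2 classes in both libraries, as did 19% of all genes. Ptprz1 was at 473 and 531 CPM in members against 2522 and 2262 CPM in precursor-like nuclei, and Lhfpl3 at 666 and 603 CPM against 4365 and 3581 CPM. Tnr, which encodes the matrix protein tenascin-R, went the other way, at 6885 and 7254 CPM against 3703 and 3382 CPM. Other matrix genes of the list were lower in members than in precursor-like nuclei. Vcan was at 606 and 620 CPM against 1004 and 982 CPM, and Matn4 at 42.8 and 47.6 CPM against 245 and 181 CPM.

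Of all genes, 3.72% were 2-fold higher than both classes. In the list of adhesion, semaphorin and process growth genes, 7 of 26 tested were: Sema4d, Sema5a, Plxnb3, Nfasc, Cadm2, Ephb1 and Opcml. Sema4d, a semaphorin made by oligodendrocytes, was at 668 and 691 CPM in members, 58.6 and 38.2 CPM in precursor-like and 157 and 134 CPM in mature-like nuclei. Ephb1, an ephrin receptor, was at 835 and 697 CPM against at most 288 CPM. In the list of ErbB, Fgf and Igf signalling, 2 of 13 were higher, Irs1, the docking protein of the insulin receptor, at 174 and 143 CPM, and Rictor, a subunit of mTOR complex 2, at 686 and 658 CPM. In the microtubule list, Map1b and Fyn were higher, 2 of 27. No tested gene of cholesterol synthesis (9), heat shock (9) or the unfolded protein response (8) was 2-fold over both classes.

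The promoters below belong to a rule marker and to a pair of the 12 leading genes, and are shown as examples of sequence next to gene starts. Only promoter entries that held the motif were printed, so the matches in them are no finding. Each is the first 200 bases of a RefSeq promoter entry (GRCm38.p6), from 250 to 51 bases before the start, written 5′ to 3′ on the gene's strand. Capitals mark the E-box CAGCTG, which is its own reverse complement, or CTTTGA, the core bound by Tcf7l2-type factors, read on either strand as CTTTGA or TCAAAG. The 2 motifs cannot match the same letters in full.
9630013A20Rik, chr14:84476475-84476674, minus strand: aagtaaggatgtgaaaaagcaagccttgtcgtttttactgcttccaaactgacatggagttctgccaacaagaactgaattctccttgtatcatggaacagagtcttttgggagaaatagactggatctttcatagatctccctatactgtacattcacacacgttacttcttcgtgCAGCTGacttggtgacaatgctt
Fyn, chr10:39369549-39369748, plus strand: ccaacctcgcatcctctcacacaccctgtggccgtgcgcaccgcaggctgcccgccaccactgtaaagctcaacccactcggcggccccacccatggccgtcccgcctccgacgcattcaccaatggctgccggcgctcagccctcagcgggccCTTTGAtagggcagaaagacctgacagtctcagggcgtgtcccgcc
Col9a1, chr1:24177360-24177559, plus strand: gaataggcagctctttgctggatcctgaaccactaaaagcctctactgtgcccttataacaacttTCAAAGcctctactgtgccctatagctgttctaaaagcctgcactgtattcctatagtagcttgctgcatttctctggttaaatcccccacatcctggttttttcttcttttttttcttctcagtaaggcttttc

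The matches began 73, 96 and 185 bases before the start. Over the 172 genes higher in members than in both classes, 127 matched the table, with 192 promoters. CAGCTG was in 20 of these (10.4%) and in 3385 of all 32851 promoters (10.3%), and CTTTGA in 13 (6.77%) and 3868 (11.8%). The share with CAGCTG was thus nearly that of all promoters and the share with CTTTGA was lower, which says nothing of the factors themselves.

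Members were not uniform. They were split by genes of the rule into those with more UMIs of Gpr17 and Bmp4 than of Enpp6 and those with fewer, and only other genes were read. The Gpr17 and Bmp4 side held 48 of 147 members in AAV-STOP (32.7%, 25.2% to 40.9%) and 44 of 125 in AAV-TAU (35.2%, 26.9% to 44.2%). The Enpp6 side held 82 (55.8%) and 70 (56.0%), and 17 and 11 members had equal counts. The balance of the 2 sides was within counting error between the libraries. Median depths were 3584.5 and 3671 UMIs on the Gpr17 and Bmp4 side and 5030.5 and 4397 on the Enpp6 side.

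Precursor genes lay with Gpr17 and Bmp4, and myelin genes with Enpp6. Precursor genes made up a median of 2.36% and 1.84% of a nucleus on the Gpr17 and Bmp4 side against 0.990% and 1.14% on the Enpp6 side. Myelin genes made up 0.453% and 0.502% against 2.00% and 2.01%. The myelin medians on the Enpp6 side were close to those of mature-like nuclei, but single genes were not. Mbp was at 8683 and 7920.0 CPM there, above its mature-like level, while Mobp was at 381 and 423 CPM against 1409 and 1251 CPM in mature-like nuclei, and Mog at 97.0 and 65.7 CPM against 738 and 698 CPM. Mobp and Mog were among the genes that chose the mature-like class.

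Of 3790 genes read, 180 (4.75%) were 2-fold or more higher on the Gpr17 and Bmp4 side in both libraries and 172 (4.54%) on the Enpp6 side. By any size in both libraries, 43.8% of genes were higher on the first side and 24.2% lower. Of 14 precursor genes 13 were higher on the first side and 0 lower. Of 14 myelin genes 10 were lower there and 0 higher. All 5 tested inhibitors of differentiation (Sox5, Sox6, Nfia, Nfib and Zbtb20) were higher on the Gpr17 and Bmp4 side, and 7 of 8 genes of cholesterol synthesis, which supplies myelin lipid, were higher on the Enpp6 side.

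The largest differences toward Gpr17 and Bmp4 were in Cacng4, an auxiliary subunit of AMPA receptors and a known precursor gene, at 190.0 against 11.8 CPM in AAV-STOP and 166 against 15.7 CPM in AAV-TAU. Pcdh15, a protocadherin, was at 1156 against 114 CPM and 576 against 81.4 CPM. Lhfpl3, a membrane protein of precursors, was at 1657 against 222 CPM and 1318 against 203 CPM. Ankrd6, a Wnt pathway protein, Rgcc and Brinp3, both tied to cell cycle control, were 5.32 to 21.8-fold higher on this side.

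The genes with the largest differences toward Enpp6 had few or no UMIs on the Gpr17 and Bmp4 side. Not every nucleus of the Enpp6 side, which held 82 and 70 members, carried them. Cemip2 was detected in 30 of 147 and 33 of 125 members, and Prom1 in 43 and 38. Cemip2 was at 5.28 CPM (1 UMI) on the Gpr17 and Bmp4 side and 589 CPM on the Enpp6 side in AAV-STOP, and at 23.7 and 548 CPM in AAV-TAU, a ratio of 112 (19.9 to 4428) and 23.1 (8.85 to 85.6). Prom1, a protein of membrane protrusions, had 0 UMIs on the Gpr17 and Bmp4 side of AAV-STOP and 150 on the Enpp6 side. The exact interval of the ratio puts it at least 18.0-fold higher there, and in AAV-TAU it was 17.8-fold higher (5.91 to 87.5). Against 3 counts over the group, the limit that a count of 0 allows, the AAV-STOP ratio was 22.4. Tns1, a focal adhesion protein, had 0 UMIs on the first side of either library and was at 106 and 100.2 CPM on the other, at least 5.25-fold and 4.32-fold higher by the exact interval (6.73 and 5.63 against 3 counts). Cldn14 (a claudin), Rras2 (a Ras-type GTPase) and Lpar1 (a lysophosphatidic acid receptor) were at 5.94 to 31.7 CPM against 157 to 504 CPM.

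Genes shared by all members in name were unevenly spread across the split. Tcf7l2 was at 486 against 2196 CPM in AAV-STOP and 540.1 against 2119 CPM in AAV-TAU, and Frmd4a at 3093 against 14663 CPM and 4143 against 14675 CPM. Fyn (3441 against 2925 CPM and 3787 against 3234 CPM) and Bcas1 (3716 against 3469 CPM and 3876 against 3572 CPM) were instead nearly level. Nkx2-2, a transcription factor of early differentiation, was at 100.3 against 40.2 CPM and 219.6 against 72.0 CPM, and Myrf at 52.8 against 142 CPM and 59.4 against 93.9 CPM. Mog, a late myelin gene, was at 36.9 against 97.0 CPM in AAV-STOP but at 119 against 65.7 CPM in AAV-TAU, so its direction was not shared. Neuronal markers moved with the split: all 5 tested excitatory neuron markers were higher on the Gpr17 and Bmp4 side in both libraries, 0 of them by 2-fold, and so was Kcnip1 of the inhibitory neuron list, by 2-fold. Their part in the differences was not tested.

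**Figure D3:**
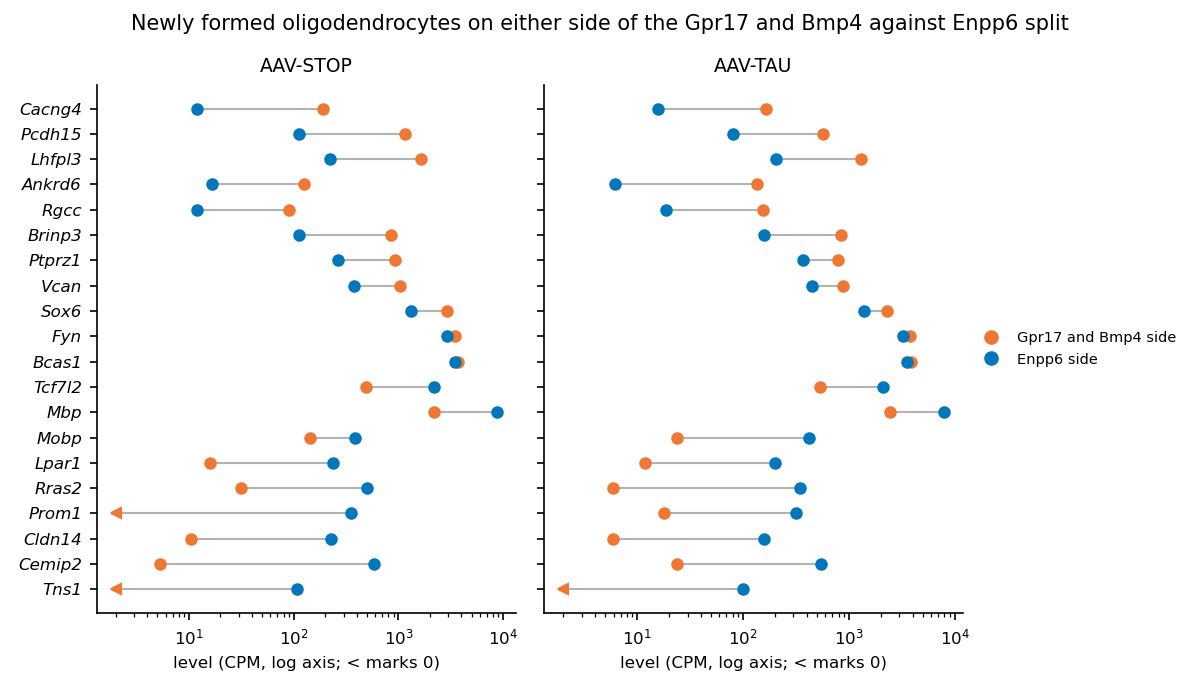
Level (CPM, log axis) of 20 genes in members with more Gpr17 and Bmp4 (orange) or more Enpp6 (blue), by library, with arrowheads for 0. Precursor genes at the top lie to the right in orange and Tns1, Cemip2 and Prom1 at the bottom to the right in blue, while Fyn and Bcas1 nearly coincide in both libraries.

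The share of members among all nuclei was 0.726% (0.613% to 0.852%) with AAV-STOP and 0.638% (0.531% to 0.760%) with AAV-TAU, giving a ratio of 0.879 (0.687 to 1.12), which was within counting error. The rule counts UMIs, and members were shallower in AAV-TAU. With every nucleus thinned to 1600 UMIs the shares were 0.420% (85 nuclei) and 0.429% (84 nuclei), a ratio of 1.02. Among members, precursor-like and mature-like nuclei together they made up 6.39% (5.42% to 7.46%) and 4.76% (3.98% to 5.65%), a ratio of 0.746 (0.583 to 0.953). Precursor-like nuclei had a similar ratio among the 3 classes, 0.783 (0.631 to 0.970), so the lower share was not confined to members. Mature-like nuclei made up 9.72% and 11.9% of all nuclei, a ratio of 1.23 (1.15 to 1.30). Of these, 30 in AAV-STOP and 452 in AAV-TAU had under 2000 UMIs. With 2000 or more UMIs required, the ratio of members among the 3 classes was 0.875 (0.682 to 1.12), and with thinning it was 0.831 (0.608 to 1.14). The lower share of members in AAV-TAU was thus outside counting error only with the shallow nuclei kept.

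Between the libraries, the medians of the precursor and myelin lists in members differed little, respiratory chain genes were higher in AAV-TAU, and several long genes of synapses and adhesion were lower. Of 4426 genes with 50 or more UMIs over both libraries' members, 208 (4.7%) were 1.5-fold or more higher in AAV-TAU and 157 (3.55%) 1.5-fold or more lower. These ratios set AAV-TAU over AAV-STOP levels with 5 CPM added to each, and are given below on the log2 scale. The median over all 4426 was 0.01, and 51.7% were higher. A level of 20 CPM in members had a counting interval of 11.3 to 34.7 CPM (AAV-STOP) or 10.4 to 37.5 CPM (AAV-TAU), so a 1.5-fold difference is within counting error for a low gene.

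Mouse Mapt, which encodes endogenous tau, was at 889 and 936 CPM (ratio 1.05, 0.933 to 1.19). The newly formed list outside the rule had a median of -0.11 over 22 genes, with 1 past 1.5-fold higher (Lims2, 32.5 and 72.3 CPM) and 2 lower (Rras2, 338 and 219 CPM, and Rap2a, 241 and 150.3 CPM). Lims2, on the plus strand, spans the rule gene Gpr17, on the minus strand. Whether the counting used strand is not given, so the 2 genes' counts may not be separate. The myelin list had a median of 0.03 over 14 genes and the precursor list 0.00 over 14, with 0 and 1 genes past 1.5-fold. That 1 was Megf11, a receptor of the Megf family, at 81.3 and 34.3 CPM. The mature list had a median of 0.19 over 10 genes, 7 higher and 0 past 1.5-fold, with a summed ratio of 1.12 (1.04 to 1.21). Enpp2, which encodes the secreted enzyme autotaxin, was at 489 and 689 CPM (1.41, 1.21 to 1.64). Among lineage transcription factors (12 genes, median 0.13), Nkx2-2 was at 65.0 and 126 CPM (ratio 1.93, 1.30 to 2.90) and Zfp488, a repressor that promotes differentiation, at 62.1 and 108 CPM (1.75, 1.15 to 2.67). Myrf was at 117 and 78.0 CPM (0.668, 0.447 to 0.987) and Tcf7l2 at 1686 and 1503 CPM. Olig1, Olig2, Sox10, Sox8 and Chd7 had ratios from 1.10 to 1.36, and Zeb2, Zfp536 and St18 from 0.851 to 0.985. Of 10 Wnt pathway genes, Ctnnb1, which encodes beta-catenin, was at 36.9 and 59.0 CPM and Daam2, a formin that enhances Wnt signalling in this lineage, at 114 and 68.5 CPM.

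Among the stage and pathway lists with 5 or more genes past the UMI minimum, the nuclear genes of the respiratory chain had the highest median, 0.68 over 11 genes, 10 of them higher and 6 past 1.5-fold. Cox5a, a subunit of cytochrome c oxidase, was at 59.1 and 118 CPM (ratio 2.00, 1.32 to 3.05), in 33 of 147 and 48 of 125 members. Cox7a2 was at 35.5 and 68.5 CPM, and Cox5b at 32.5 and 62.8 CPM. The list's other 11 genes had under 50 UMIs. The same list was higher in precursor-like nuclei (median 0.30 over 17 genes) and mature-like nuclei (0.63 over 22), so the difference was not confined to members. Heat shock genes had a median of 0.24 over 10 genes, with Hsp90aa1 at 185 and 300.7 CPM and Hspa8 at 254 and 362 CPM. Their medians were 0.37 and 0.51 in the other 2 classes.

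Gene length moved with these differences. In members, 82.4% of the 148 genes under 5 kb were higher with AAV-TAU (median 0.35). Of the 1426 genes longer than 100 kb, 37.4% were (median -0.09). In precursor-like nuclei the same medians were 0.31 and -0.06, and in mature-like nuclei 0.22 and -0.08. The part of gene length, depth and mitochondrial share, which also differed between the libraries, was not tested.

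The 12 highest ratios were led by Tenm3, a teneurin adhesion molecule, at 73.9 and 206 CPM, and Chrm3, a muscarinic acetylcholine receptor, at 38.4 and 110.4 CPM. A single nucleus gave 44.4% of the Tenm3 UMIs in AAV-TAU, and 29.3% of those of Chrm3. Without the marked doublets the log2 ratio of Tenm3 was -0.33 and that of Chrm3 0.25, so the difference of Tenm3 turned and that of Chrm3 was under 1.5-fold. Aldoa, a glycolytic enzyme, was at 85.7 and 196 CPM (ratio 2.29, 1.64 to 3.21), in 46 of 147 and 65 of 125 members. Tshz1, a zinc finger transcription factor, was at 44.3 and 107 CPM (2.40, 1.52 to 3.88), in 27 and 41 members, and had log2 differences of -0.10 and -0.09 in precursor-like and mature-like nuclei. Hdac2, a histone deacetylase that acts in oligodendrocyte differentiation, was at 34.0 and 83.7 CPM (2.46, 1.46 to 4.27). Atp5l, Eloc, Uba1, Gpr107, Tpt1, Sfr1 and Tle5 had ratios of 2.20 to 2.58.

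The lowest ratios were mostly of long genes of synapses and adhesion. Tenm1, another teneurin, was at 106 and 36.2 CPM (ratio 0.340, 0.194 to 0.570), in 31 of 147 and 16 of 125 members, and Gabrb2, a subunit of GABA type A receptors, at 111 and 41.9 CPM. Cntn5, Sgcz, Cntnap5b, Clstn2 and Ryr3 had ratios of 0.372 to 0.412, with 15.1% to 35.6% of these genes' AAV-STOP UMIs from 1 nucleus each. Without marked doublets the log2 ratio of Cntn5 was -0.52 and that of Sgcz -0.50, both under 1.5-fold. These 5 genes, Tenm1 and Gabrb2 were at 259 to 1097 CPM in the other nuclei of AAV-STOP, above their levels in members. Precursor-like nuclei of AAV-STOP also held more of them than members, at 116 to 1104 CPM, except Cntn5 (78.1 against 149 CPM). Maml3, Nrg2, Macrod1 and Polr3e were also among the lowest. Maml3 and Nrg2 were also higher in the other nuclei, while Macrod1 and Polr3e (57.6 and 20.9 CPM, and 65.0 and 26.6 CPM) were lower there than in AAV-STOP members.

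**Figure D4:**
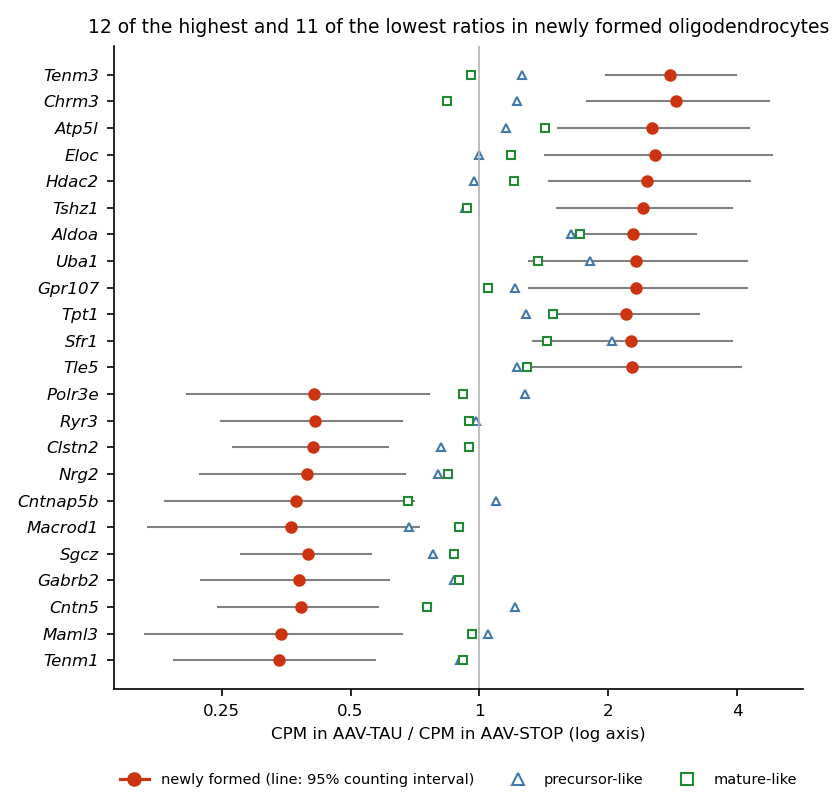
Ratio of AAV-TAU to AAV-STOP CPM (log axis) for 12 of the highest and 11 of the lowest genes of newly formed oligodendrocytes (red, with the 95% counting interval) and for the same genes in precursor-like (blue triangles) and mature-like nuclei (green squares). The other classes' points lie nearer to 1 for most genes, and Tshz1, at 2.40 in newly formed oligodendrocytes, has both other classes just below 1.

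Glutamate and GABA receptor genes had a median of -0.32 over 17 genes, 15 of them lower in AAV-TAU and 2 past 1.5-fold (Gabrb2 and Grin2a). Grin2a, an NMDA receptor subunit, was at 291 and 148 CPM in members and at 2246 and 1923 CPM in the other nuclei. Its log2 ratio of -0.95 was -0.42 without marked doublets, which is under 1.5-fold. The list's medians were -0.06 in precursor-like and -0.11 in mature-like nuclei. Without marked doublets the median in members was -0.16 over 14 genes. The excitatory neuron markers summed to 974 and 906 CPM in members, against 4512 and 4205 CPM in the other nuclei, with 0 of 11 at 0 in either library, and a member held at most 0.490% and 0.446% of its UMIs on them. The part of neuronal RNA in this difference was not tested.

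Among the remaining lists, the microtubule and tau related genes had a median of 0.15 over 23 genes, 15 higher, with Stmn2, Stmn1 and Stmn3 of the stathmin family past 1.5-fold (Stmn2 at 63.5 and 108 CPM). Of all genes, 51.7% were higher and 4.7% were 1.5-fold or more higher. That list's medians were 0.15 over 27 genes in precursor-like and 0.10 over 33 in mature-like nuclei, so the difference was not confined to members. Adhesion genes had -0.09 over 23, with Dcc, the netrin receptor, at 299.9 and 152 CPM and Nrp1, a semaphorin co-receptor, at 70.9 and 36.2 CPM. The log2 ratio of Nrp1 was -0.88, but 0.79 with members thinned and -0.36 without marked doublets, and 27.1% of its AAV-STOP UMIs came from 1 nucleus. In ErbB, Fgf and Igf signalling (13 genes, -0.07), Nrg2 was at 91.6 and 36.2 CPM and Nrg3 at 591 and 365 CPM, both neuregulins. The log2 ratio of Nrg3 was -0.69, but -0.46 without marked doublets and -0.54 without the largest member of each library, both under 1.5-fold, and 24.8% of its AAV-STOP UMIs came from 1 nucleus. Cholesterol synthesis had -0.11 over 10 genes, with Nsdhl past 1.5-fold lower (66.5 and 32.4 CPM) and Cyp51 higher by less on the CPM + 5 scale (88.7 and 135 CPM). The unfolded protein response had 0.03 over 9 genes, with Calr, a calcium-binding chaperone, at 149 and 97.1 CPM. Disease-associated oligodendrocyte genes had 0.09 over 7 of 19, with 1 gene past 1.5-fold. The cell death list had 0.24 over 6 of 18 genes, with Mdm2 at 100.5 and 60.9 CPM. Without marked doublets Calr (-0.47), Mdm2 (-0.55) and Ctnnb1 (0.50) were under 1.5-fold. Interferon genes passed the minimum in 3 of 22 (ratios 1.29 to 1.49) and immediate early genes in 0 of 18, so these programmes were not measurable at this depth.

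**Figure D5:**
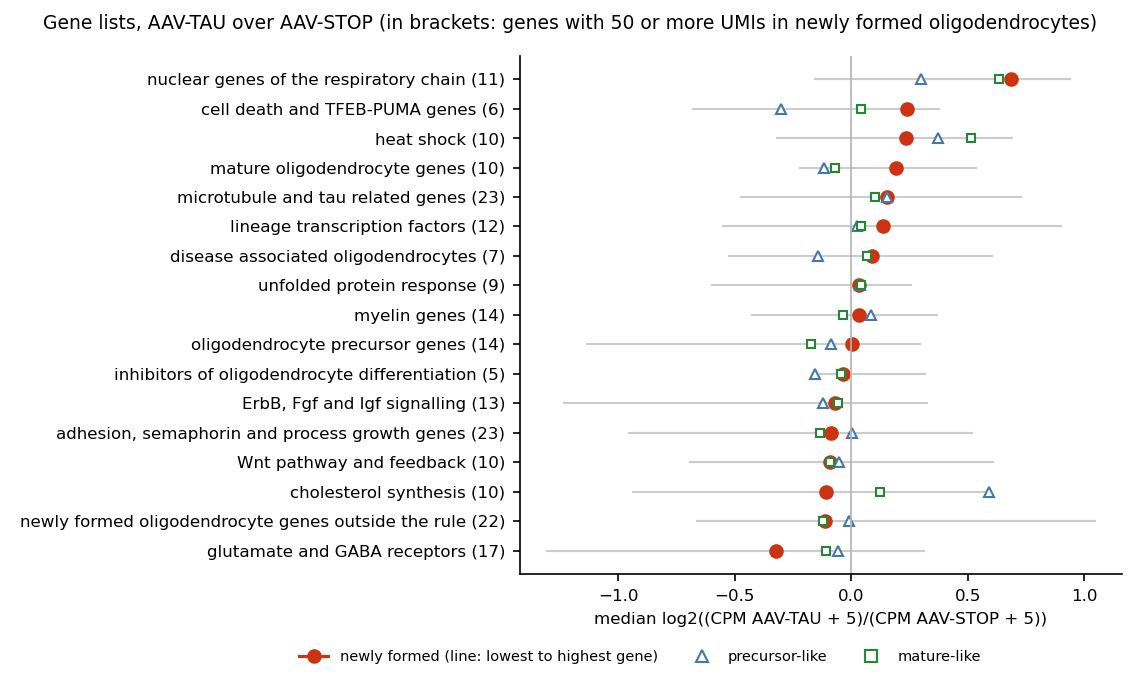
Median log2 ratio, AAV-TAU over AAV-STOP with 5 CPM added to each, of the stage and pathway lists with 5 or more measured genes in newly formed oligodendrocytes (red, with a grey line from the lowest to the highest gene), precursor-like (blue) and mature-like nuclei (green), each over the list's genes with 50 or more UMIs in that class. The respiratory chain (0.68) is highest and the glutamate and GABA receptors (-0.32) lowest in newly formed oligodendrocytes, and the stage lists lie from -0.11 to 0.19.

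Markers of other cells differed in level in members. Inhibitory neuron markers summed to 2784 and 2470 CPM, above the 999 and 1011 CPM of the other nuclei. Most of the sum came from Erbb4 (2339 and 2097 CPM), a neuregulin receptor that the list of ErbB signalling also holds. All 3 tested inhibitory neuron markers were lower in AAV-TAU, and so were all 4 tested astrocyte markers (summed ratio 0.732, 0.612 to 0.874), with Gpc5, a glypican, at 262 and 169 CPM (log2 ratio -0.61, and -0.56 without marked doublets, which is under 1.5-fold). Of all genes 51.7% were higher in AAV-TAU, and of those longer than 100 kb 37.4% were. Erbb4, Kcnip1, Gpc5, Slc4a4 and Slc1a2 are longer than 100 kb, so these small counts do not set the lists apart. Gpc5 gave 177 of the 350 AAV-STOP UMIs of these 4 astrocyte markers. It was at 2707 and 2455 CPM in precursor-like nuclei, above its 310 and 331 CPM in the other nuclei. Over the whole astrocyte list the sums were 603 and 523 CPM, and microglia markers summed to 223 and 234 CPM. Endothelial markers were at 0 for 8 of 9 genes in AAV-STOP and for 1 of 9 in AAV-TAU, with sums of 5.91 and 95.2 CPM, and 121 of 125 AAV-TAU members had none. Ttr, a choroid plexus transcript, was at 63.5 and 147 CPM, with 31.2% of the AAV-TAU UMIs from 1 member. The part of these transcripts in the differences between the libraries was not tested.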

How the data were processed

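Deposited UMI counts per gene and filtered barcode were used for 1 AAV-STOP and 1 AAV-TAU library of hippocampal nuclei (10x Genomics 3′ chemistry). The authors made these counts with Cell Ranger, version 8.0.1 per the file headers and 4.0 per the submitters' processing notes, which also name Seurat 4.4.0 and mm10. Each table held 32285 genes. Barcodes with over 5% mitochondrial UMIs were left out (4 and 2). Doublets were marked by the scrublet method (expected rate 0.15) and kept, with an alternative without them. Members, neighbouring classes and gene lists were chosen with earlier results of these data known.

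Counts were summed per class and library and scaled to CPM. Ratios used a pseudocount of 5 CPM. Shares carry exact binomial (Clopper-Pearson) intervals, levels exact Poisson intervals and ratios of counts exact conditional intervals, all at 95% and for counting error only. The text names the 12 genes highest and 6 lowest in members against both other classes, the 12 highest and 12 lowest between libraries (50 or more UMIs, 20 CPM or more in the higher library), the 6 highest and 6 lowest across the Gpr17 and Bmp4 against Enpp6 split, and up to 4 genes per list with the largest ratios, with every lineage transcription factor. The ranked genes leave out the rule genes, unnamed gene models (Gm, Rik, clone names), transcripts of mitochondria, ribosomal proteins, haemoglobin and sex chromosomes used for sexing, and, between libraries, markers of other cell types. Other stage genes are printed as members of their lists. A few genes that these rules take are not reported here. Gene positions came from GENCODE vM21. Alternatives changed the pseudocount, scaling, depth, doublets, rule limits and UMI minimum. The computation was tested on simulated data and used Python 3.11.15, numpy 2.4.6, scipy 1.17.1, pandas 2.3.3, scikit-image 0.26.0 and matplotlib 3.10.9.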

Additional observations from a re-analysis of the deposited data

How the results depend on the processing

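No paired analysis was possible because each group has 1 library, and for the same reason no replicate could be left out. Thinned to 1600 UMIs, members were 0.420% and 0.429% of nuclei, and 4.89% of the 3 classes in AAV-STOP. Genes past 1.5-fold higher and lower numbered 108 and 89 with a pseudocount of 20 CPM, 61 and 82 (of 1564) with members thinned, 698 and 469 (of 7972) at 20 UMIs and 25 and 27 (of 1390) at 150 UMIs. The largest member of each library was left out as a choice made after seeing the data.

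The list medians below moved by more than the counting error of the list's summed UMIs (main values not in the text: inhibitors -0.03, Wnt genes -0.09, mature genes 0.19). As means over nuclei, they were -0.043 for newly formed genes outside the rule and -0.054 for precursor genes. With members thinned, which left fewer genes, they were -0.019 for newly formed genes outside the rule, 0.013 for transcription factors, 0.089 for inhibitors, 0.15 for Wnt genes, -0.19 for mature genes, 0.59 for cholesterol synthesis (1 gene), 0.025 for ErbB, Fgf and Igf genes, 0.43 for heat shock, 0.32 for the respiratory chain (1 gene), 0.088 for microtubule genes and -0.13 for adhesion genes. Without marked doublets, they were -0.069 for newly formed genes outside the rule, -0.058 for precursor genes, 0.067 for transcription factors, -0.023 for myelin genes, -0.16 for receptors and -0.13 for the unfolded protein response. With a marker sum of 6 or more, they were -0.059 for newly formed genes outside the rule, -0.055 for precursor genes and 0.10 for myelin genes. With no Rbfox3 UMI, they were -0.045 for precursor genes, -0.12 for inhibitors, -0.032 for mature genes, -0.23 for receptors, -0.065 for cell death genes and 0.025 for microtubule genes. At 20 UMIs, they were 0.062 for mature genes and 0.48 for the respiratory chain. At 150 UMIs, they were -0.022 for transcription factors, 0.073 for Wnt genes, 0.49 for heat shock, 0.074 for microtubule genes and -0.13 for adhesion genes. Without the largest member of each library, adhesion genes were at -0.13.

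Without doublets 62 genes were lower in members than in both classes. At 3-fold, 94 were higher and 4 lower than both, and 46 and 77 lay on the Gpr17 and Bmp4 or the Enpp6 side. Thinned, the 2 sides had 93 and 106. The direction turned for Tenm3 without doublets (-0.33) and for Nrp1 when thinned (0.79). The cause of the moves other than fewer genes or nuclei was not tested.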

Other observations

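Several gene models that the naming rule left out stood as high in members as the named genes, and they were picked after their values were seen. 9530059O14Rik was at 2764 CPM in AAV-STOP and 2765 CPM in AAV-TAU members, against 49.5 and 39.9 CPM in precursor-like and 255 and 241 CPM in mature-like nuclei, and was detected in 89.8% and 92.0% of members. Gm36988 was at 229 and 196 CPM in members and at most 4.47 CPM in the other 2 classes. Gm13187 was at 161 and 162 CPM, against at most 3.13 CPM, and D430041D05Rik at 920.5 and 733 CPM, against at most 123 CPM. Like 9630013A20Rik, which the rule used, these transcripts differed by less than 1.5-fold between the 2 libraries. The counting intervals of D430041D05Rik (850 to 996 and 661 to 810 CPM) did not overlap. The ratio of 9630013A20Rik, 1.17 (1.11 to 1.24), was also outside counting error.

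Glutamate and GABA receptor genes differed across the Gpr17 and Bmp4 against Enpp6 split: of 16 tested, 12 were higher on the Gpr17 and Bmp4 side in both libraries, against 43.8% of all genes. By 2-fold, 1 was higher there (4.75% of all genes) and 2, Grik2 and Grm7, were higher on the Enpp6 side (4.54%), so the 2-fold counts do not set the list on either side. All 5 tested excitatory neuron markers were also higher on the Gpr17 and Bmp4 side, and their part in this was not tested.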
